A study of Arabidopsis thaliana with 9 samples.

Results

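Leaves of Arabidopsis thaliana collected 60 min after wounding were compared with leaves collected before wounding, gene by gene and function by function. Each of the 2 groups had 3 libraries of polyadenylated RNA, described by the submitters as biological replicates, and the 6 libraries were taken out of a series of 9 by their time label alone, with no measured value used. The other 3 libraries, from 30 min after wounding, served to estimate the spread between replicates and for a direct comparison of both times after wounding. Both groups were wild type of the Col-0 ecotype, the standard laboratory accession, with no transgene or mutation, grown in soil in short days. The age of the plants, the wounding method and the hour of harvest were not given in the sources used here. No unwounded leaves collected at 60 min were labelled, so the effect of wounding and that of the hour of harvest cannot be told apart in any value below.

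A wounded leaf makes jasmonates from plastid lipids within minutes, and the active hormone, jasmonoyl-isoleucine, removes JAZ repressors from transcription factors that turn on defence genes. Defence is often viewed as drawing on carbon, nitrogen and sulfur that would otherwise go to growth. The messages of primary metabolism, protein synthesis, cell expansion and cell division are therefore often examined beside those of defence. Sugar shortage or darkness turns on a separate set of genes that take proteins and amino acids apart for energy. Genes of these functions are described below as groups, with values for individual members.

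The 60 min libraries held 22072126 to 22477982 counts and the libraries from before wounding 22470198 to 22970735, so depth was nearly equal. A count of 3, taken as the detection floor, corresponded to 0.114 to 0.133 CPM at 60 min and 0.132 to 0.151 CPM before wounding, where CPM scales each library's counts to a common total after TMM scaling, and floors cover counting error only. Of 27206 genes in the table, 17622 passed the filter on low counts and were tested. The first principal component of the 6 libraries held 66.3% of the variance and separated the groups. The next component held 14% and set 60 min replicate 2 apart from the other two libraries of its group, and that library also had the largest scaling factor, 1.196. Markers of leaf mesophyll were abundant throughout, with 1035212 to 1431660 counts of RBCS1A at 60 min and 1602355 to 1682392 before wounding. Of 6 root markers, IRT1 and EXPA7 had no count in any of the 6 libraries, but SCR, which also acts in leaves, had 295 to 394 counts at 60 min and 591 to 774 before wounding and was called lower (log2 change -1.08, adjusted p = 0.000542), and SHR had 124 to 151 counts at 60 min and 148 to 184 before wounding. Of 6 flower and shoot meristem markers, STM had no count in any of the 6 libraries, and SEP3 had 27 to 66 counts at 60 min and 22 to 28 before wounding. Of 8 guard cell markers, 5 were higher at 60 min and none was lower, with a median log2 change of 0.98, and their summed level was 179 to 194 CPM at 60 min against 111 to 129 CPM before wounding. Of 4 tested trichome markers, 2 were lower and none was higher, with a summed level of 8.9 to 11.8 CPM over the whole list at 60 min against 16.1 to 19.6 CPM before wounding. In leaf RNA, fewer cells of a type and less RNA per cell cannot be told apart.

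At an adjusted p under 0.05, 5704 genes were called, which is 32.4% of those tested. Higher levels at 60 min were called for 17.1% of the tested genes and lower levels for 15.3%, and these shares are the background for every count below. The median log2 change over all tested genes was 0.06. Scaling by library size alone gave 4208 genes higher and 1723 lower, a share of 70.9% higher among the calls against 52.9% in the reported fit, and moved the median of all genes to 0.28. Under that scaling the lower counts given below became 7 in chlorophyll synthesis, 3 in each of the shikimate, salicylic acid and type-A response regulator lists, 2 in each of the aquaporins and WRKY factors, 1 in each of the photosystem, antenna, indole glucosinolate, starch synthesis and sugar transport lists, and 0 in endoplasmic reticulum folding, cuticular wax, cellulose synthesis and the proteasome. The higher counts became 4 in cuticular wax and in tryptophan synthesis, 3 in aquaporins, fatty acid synthesis, the proteasome and the leaf growth and light signalling lists, 1 in the antenna and starch synthesis lists, and 13 in ribosomal proteins. List medians moved with it, and the few that changed sign are named where they are given. Genes were grouped into 49 lists, and the calls in each are shown in the plot of calls by gene list. Members named beyond the rule for named genes were chosen after their values were seen.

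**Figure D1:**
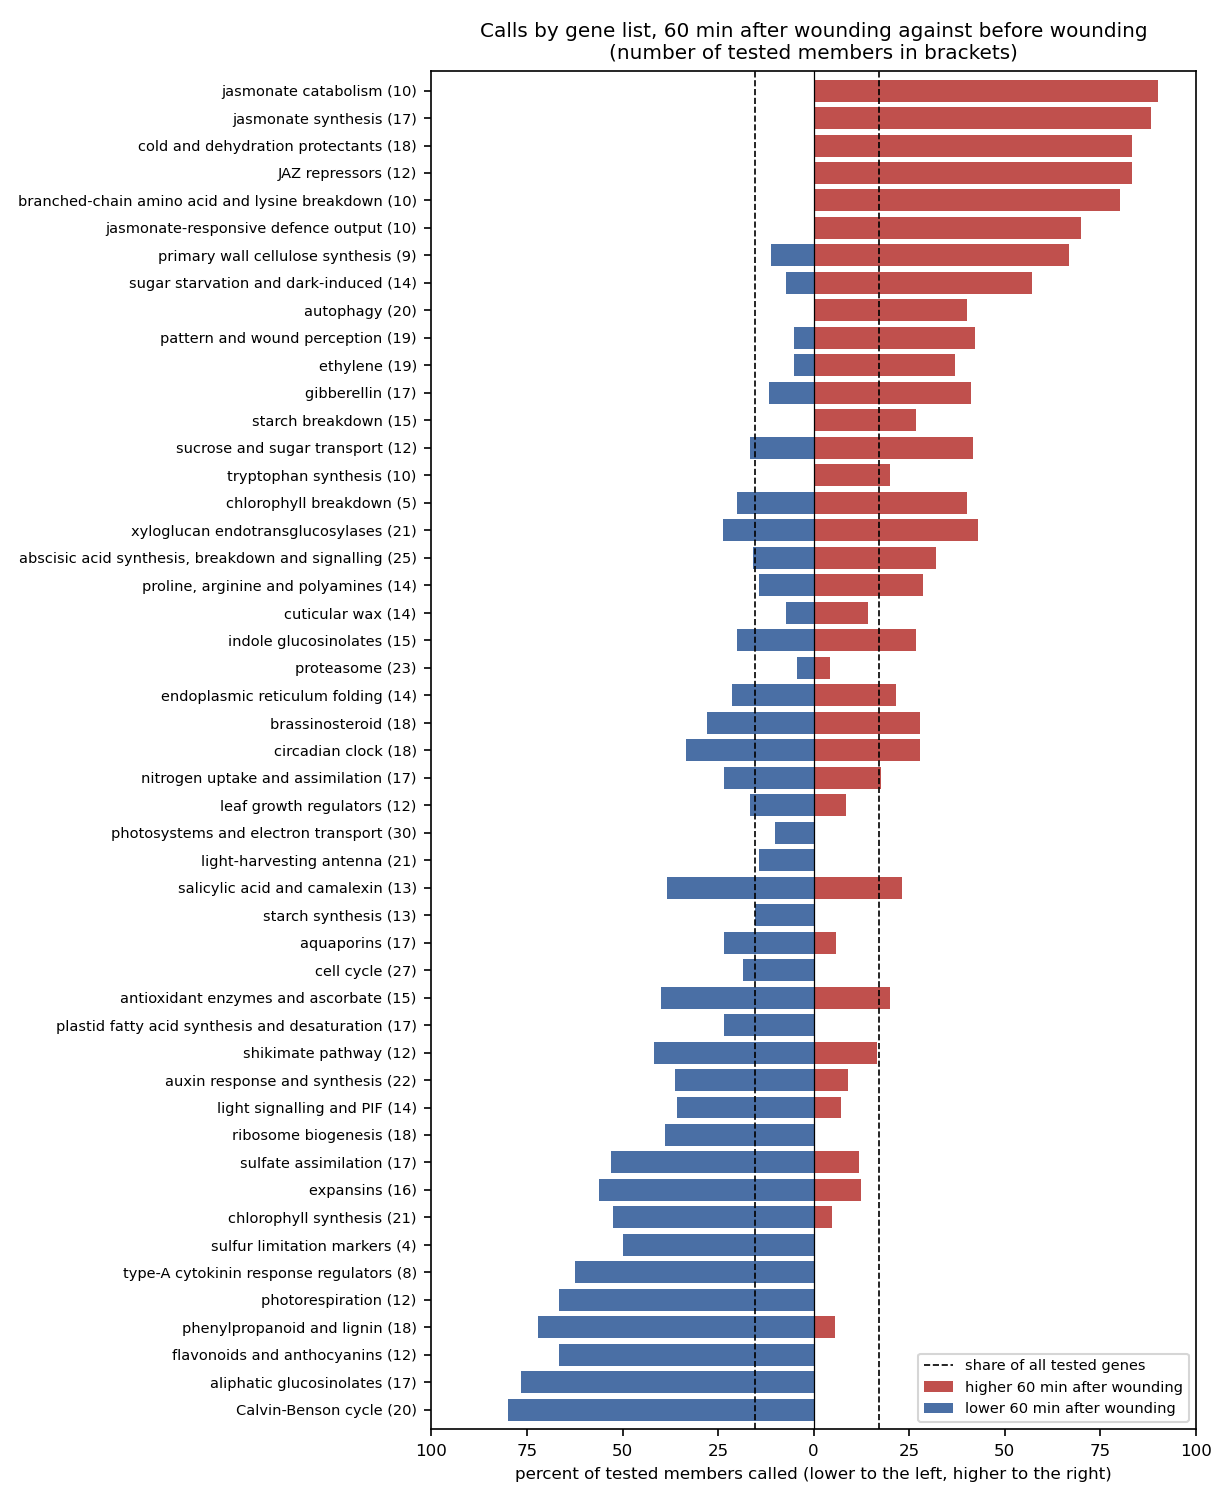
Percent of the tested members of each of the 49 gene lists called higher (red, to the right) or lower (blue, to the left) 60 min after wounding against before wounding, with the number of tested members in brackets. Dashed lines mark the background of 17.1% higher and 15.3% lower; jasmonate lists, cold protectants and branched-chain amino acid breakdown stand at the top, and the Calvin-Benson cycle, with 16 of 20 members lower, at the bottom.

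Genes that mark sugar shortage and darkness were among the most abundant that rose. Of 14 tested members of this list, 8 were higher and 1 was lower, with a median log2 change of 1.26. DIN10 (AT5G20250), named for its induction in the dark and annotated as a raffinose synthase family protein, had the largest gain in CPM among called genes whose groups did not overlap. It had 1410, 1360 and 2130 CPM at 60 min, against 342, 403 and 525 CPM before wounding. SIP2 (AT3G57520), annotated as seed imbibition 2 and outside this list, was also among the 8 largest gains. It had 885, 992 and 1610 CPM at 60 min, against 130, 86.6 and 116 CPM before wounding. Every 60 min library stood above every library from before wounding for both genes, and their log2 changes were 1.95 ± 0.22 (SE, adjusted p = 1.94e-05) and 3.39 ± 0.25 (adjusted p = 6.05e-07). SEN1, a senescence and dark marker, averaged 405 ± 123 CPM at 60 min and 36.9 ± 9.16 CPM before wounding (SD, n = 3 each here and below). AKINBETA1, a subunit of the SnRK1 energy-sensing kinase, averaged 198 ± 31.3 CPM at 60 min and 80.5 ± 8.61 CPM before wounding. The member that fell was TPS5, a trehalose phosphate synthase of the regulatory class, at 3.52 ± 0.197 CPM against 11 ± 1.07 CPM. Together the list took 0.410 ± 0.0878% of the counts at 60 min and 0.121 ± 0.0102% before wounding, a ratio of 3.38. An exact two-sided permutation test of that share gave p = 0.1, the smallest value that 3 against 3 libraries allow, as it did for each share below unless another p is given.

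Genes that store nitrogen or break down amino acids also rose. Of those given here, ASN1 and BCAT-2 are members of the sugar shortage list above, and BCAT-2 is counted again among the branched-chain genes below. ASN1 (AT3G47340), a dark-induced asparagine synthetase that stores nitrogen in a carbon-poor form, had 522, 624 and 1020 CPM at 60 min, against 50.2, 59.3 and 58.2 CPM before wounding. GDH2 (AT5G07440), a glutamate dehydrogenase that returns carbon skeletons from amino acids, had 224, 240 and 384 CPM at 60 min, against 8.9, 6.77 and 8.93 CPM before wounding. BCAT-2 (AT1G10070), a transaminase of the branched-chain amino acids leucine, isoleucine and valine, had 34.5, 63.1 and 65.6 CPM at 60 min, against 0.263, 0.242 and 0.552 CPM before wounding. All 3 genes were clear of overlap between the groups, with log2 changes of 3.69 ± 0.23 for ASN1 (adjusted p = 1.72e-07), 5.11 ± 0.25 for GDH2 (adjusted p = 2.05e-08) and 7.27 ± 0.42 for BCAT-2 (adjusted p = 1.04e-07). Of the 10 tested genes of branched-chain amino acid and lysine breakdown, 8 were higher, each by at least 2-fold, and none was lower, with a median log2 change of 1.90. Over all tested genes 8.35% were higher and 7.13% lower by at least 2-fold. Later steps of the route were among them: DIN4 and BCE2, subunits of the branched-chain keto acid dehydrogenase, had log2 changes of 2.2 and 2.06, and IVD, isovaleryl-CoA dehydrogenase, 1.75. MCCA, a subunit of methylcrotonyl-CoA carboxylase, averaged 162 ± 38.9 CPM at 60 min and 27.0 ± 4.11 CPM before wounding. ETFQO, which passes the electrons on to respiration, had a log2 change of 2.14.

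Proline was covered by genes of both directions. Of 14 tested genes of proline, arginine and polyamines 4 were higher, 2 were lower and 8 were not called. Over the alternatives the higher count was 4 to 5 and the lower count 1 to 3. The median log2 change was -0.04, and -0.12 to 0.17 over the alternatives. ERD5 (AT3G30775), proline dehydrogenase, which oxidises proline, had 791, 642 and 1290 CPM at 60 min, against 34.8, 29.2 and 50.1 CPM before wounding, with a log2 change of 4.58 ± 0.33 (adjusted p = 4.93e-07). AT5G38710, annotated in the same family, averaged 4.47 CPM at 60 min and 0.278 CPM before wounding. P5CDH, the next enzyme of proline breakdown, had a log2 change of 1.05. P5CS1, the first enzyme of proline synthesis, averaged 19.3 CPM at 60 min and 47.9 CPM before wounding, and its call was lost without 60 min replicate 1 or without replicate 1 or 2 from before wounding (adjusted p up to 0.0744). Both arginine decarboxylases, which start polyamine synthesis, moved in opposite directions: ADC2 averaged 293 ± 27.3 CPM at 60 min and 94.1 ± 24.4 CPM before wounding, while ADC1 averaged 90.5 ± 8.86 CPM at 60 min and 189 ± 25.6 CPM before wounding. MIOX2 (AT2G19800), which opens the ring of myo-inositol, had 647, 702 and 867 CPM at 60 min, against 53.5, 15.0 and 36.4 CPM before wounding, a log2 change of 4.40 ± 0.36 (adjusted p = 1.69e-06).

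The nitrate and nitrite reductase genes NIA2 and NIR1 fell. Of 17 tested genes of nitrogen uptake and assimilation, 3 were higher and 4 were lower, with a median log2 change of -0.18 that became 0.05 under scaling by library size alone. NIA2, nitrate reductase, had 335, 280 and 337 CPM at 60 min, against 679, 610 and 693 CPM before wounding (log2 change -1.06, adjusted p = 0.000334). NIR1, nitrite reductase, averaged 112 ± 9.6 CPM at 60 min and 210 ± 21.5 CPM before wounding. ASN2, an asparagine synthetase that is not dark-induced, had 29.3, 27.3 and 24.9 CPM at 60 min, against 81.9, 62.3 and 68.3 CPM before wounding, the opposite direction to ASN1. The plastid glutamine synthetase GS2 and the glutamate synthase GLU1 had log2 changes of -0.07 and -0.05 and were not called.

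Autophagy, the delivery of cell contents to the vacuole, showed 8 of 20 tested genes higher and none lower, with a median log2 change of 0.56. The count was 5 without replicate 2 or without replicate 3 from before wounding. ATG18A had 21.2, 18.8 and 26.8 CPM at 60 min, against 11.7, 9.96 and 8.28 CPM before wounding (log2 change 1.16 ± 0.18, adjusted p = 0.000346). ATG8E and ATG8F, which coat the forming autophagosome, had log2 changes of 1.06 and 0.63. The proteasome, the other main route of protein breakdown, had 1 of 23 tested subunit genes higher, 1 lower and a median of 0.00. Those 2 calls, RPT3 and PBD1, were each lost without any of 3 libraries, with adjusted p up to 0.0864 and 0.094.

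Of 12 tested genes of sucrose and sugar transport 5 were higher, 2 were lower and 5 were not called. CWINV1 (AT3G13790), a cell wall invertase that splits sucrose outside the cell, averaged 18.5 ± 1.43 CPM at 60 min and 2.21 ± 0.51 CPM before wounding (log2 change 3.06 ± 0.22, adjusted p = 5.62e-07). STP1, which imports hexoses, averaged 488 ± 190 CPM at 60 min and 96.4 ± 6.2 CPM before wounding. STP13 and the sucrose exporter SWEET12 also rose, with log2 changes of 1.87 and 1.28. STP4, another hexose importer, had a log2 change of 0.82 and lost its call without 60 min replicate 3 or without replicate 2 from before wounding (adjusted p up to 0.0727). SPS4F (AT4G10120), a sucrose phosphate synthase, had 21.7, 19.5 and 22.7 CPM at 60 min, against 129, 127 and 136 CPM before wounding (log2 change -2.61 ± 0.14, adjusted p = 5.95e-08). SWEET11, a sucrose exporter, was the other lower member at a log2 change of -0.53, and its call was lost without 60 min replicate 2 or 3 or without replicate 2 or 3 from before wounding (adjusted p up to 0.124). The other SPS genes were not called, with log2 changes of -0.30 to 0.67. GBSS1, the granule-bound starch synthase that makes amylose, averaged 9.55 ± 0.634 CPM at 60 min and 48.0 ± 4.33 CPM before wounding. Among the 13 tested starch synthesis genes 2 were lower, near the background share, and none was higher. The other lower gene, the plastid phosphoglucomutase PGM, lost its call without 60 min replicate 1 or 3 or without replicate 1 from before wounding (adjusted p up to 0.0937), which left 1. Among the 15 tested starch breakdown genes 4 were higher and none was lower. AMY3, an alpha-amylase, and BAM1, a beta-amylase, had log2 changes of 0.68 and 0.89.

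**Figure D2:**
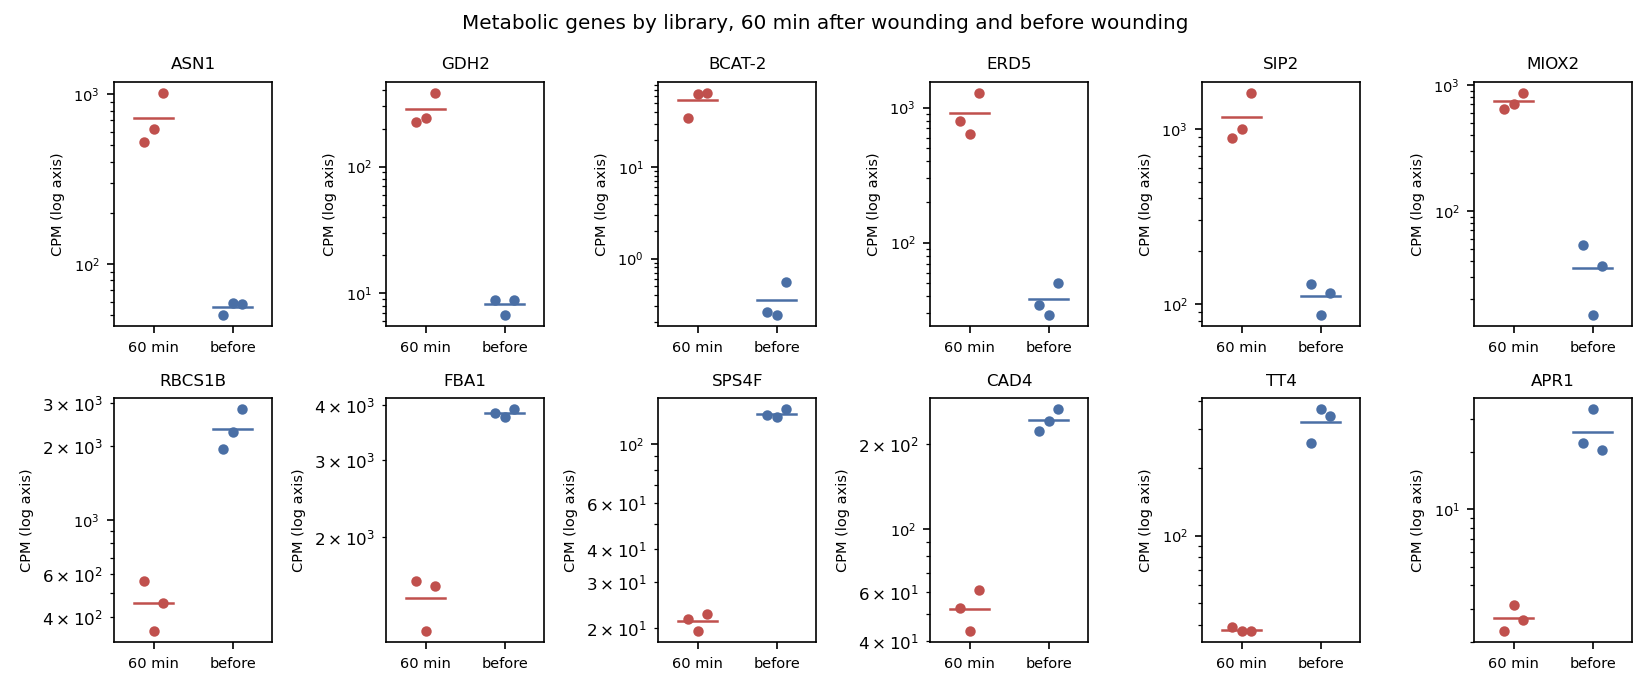
Level of 12 metabolic genes in each library, in CPM on a log axis, for the 3 libraries from 60 min after wounding (red, left) and the 3 from before wounding (blue, right), with the group mean as a line. The 6 genes of the upper row were higher at 60 min in all 3 libraries and the 6 of the lower row were lower, with no overlap.

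Messages for carbon fixation fell by less than 2-fold in most cases, but from a very high level. Of 20 tested Calvin-Benson cycle genes 16 were lower and none was higher, with a median log2 change of -0.64. The list took 10.3 ± 1.26% of the counts at 60 min and 14.2 ± 0.159% before wounding. RBCS1B (AT5G38430), a small subunit of Rubisco, the enzyme that captures carbon dioxide, had 563, 350 and 458 CPM at 60 min, against 1950, 2280 and 2830 CPM before wounding (log2 change -2.37 ± 0.23, adjusted p = 6.07e-06). FBA1 (AT2G21330), a plastid aldolase, had 1590, 1220 and 1550 CPM at 60 min, against 3840, 3770 and 3920 CPM before wounding (log2 change -1.40 ± 0.17, adjusted p = 4.53e-05). The most abundant Rubisco subunit message, RBCS1A (AT1G67090), had 61700, 39200 and 50600 CPM at 60 min, against 70300, 77900 and 84400 CPM before wounding. Its groups did not overlap, and its log2 change was -0.62 ± 0.22 (adjusted p = 0.0467). The call was lost without 60 min replicate 2 (adjusted p = 0.132) or 3 (0.111), and without replicate 1 (0.0645), 2 (0.137) or 3 (0.167) from before wounding.

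The calls of RBCS2B and of Rubisco activase, RCA, with log2 changes of -0.73 and -0.68, also ended when single libraries were left out. RBCS2B was lost without 60 min replicate 2 (adjusted p = 0.0695) or without replicate 2 (0.0837) or 3 (0.0963) from before wounding, and RCA without 60 min replicate 2 (0.057) or without replicate 1 (0.0507) or 2 (0.0619) from before wounding. The count of lower Calvin-Benson genes was 8 without 60 min replicate 2 or without replicate 2 from before wounding, and 10 without replicate 1 or replicate 3 from before wounding. FBA2 and GAPA, a plastid aldolase and a glyceraldehyde phosphate dehydrogenase, had log2 changes of -0.81 and -0.98, and carbonic anhydrase CA2 had 3280, 2640 and 3780 CPM at 60 min, against 5220, 5250 and 5340 CPM before wounding.

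Photorespiration, which salvages the by-product of oxygen fixation by Rubisco, showed 8 of 12 tested genes lower and none higher, with a median log2 change of -0.49. GLDP1, the glycine-cleaving subunit of glycine decarboxylase, averaged 1180 ± 146 CPM at 60 min and 2250 ± 253 CPM before wounding. CAT2, the catalase that removes hydrogen peroxide in this route, averaged 637 ± 81.8 CPM at 60 min and 1210 ± 167 CPM before wounding. The count was 5 without 60 min replicate 2 or without replicate 2 or 3 from before wounding. Chlorophyll synthesis had 11 of 21 tested genes lower and 1 higher. HEMA1, glutamyl-tRNA reductase at the entry of the pathway, had 566, 471 and 653 CPM at 60 min, against 1200, 1440 and 1400 CPM before wounding (log2 change -1.26, adjusted p = 7.46e-05). GUN5, a subunit of magnesium chelatase, and CAO, which makes chlorophyll b, had log2 changes of -0.95 each. CRD1, a cyclase subunit of the same pathway, averaged 2740 ± 492 CPM at 60 min and 4720 ± 224 CPM before wounding. The exception was HEMA2, the other glutamyl-tRNA reductase, at 37.1 ± 8.37 CPM against 23.1 ± 0.327 CPM. The count of lower genes was 6 without 60 min replicate 2 and 7 without replicate 1 or replicate 2 from before wounding.

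Few genes of the 2 light reaction lists were called. Of 30 tested photosystem and electron transport genes 3 were lower and none was higher, and of 21 tested antenna genes 3 were lower and none was higher, near or under the background of 15.3%. The photosystem count was 1 without any single library except 60 min replicate 3, and the antenna count 1 without 60 min replicate 1 or 2 or without replicate 2 or 3 from before wounding. The median log2 changes were -0.21 and -0.17, and under scaling by library size alone they were -0.01 and 0.04. Antenna genes took 23.4 ± 0.982% of the counts at 60 min and 22.8 ± 1.59% before wounding, with p = 0.8 in the exact permutation test. PSBS, which protects photosystem II from excess light, was the photosystem gene with the smallest p, at 1290 ± 367 CPM at 60 min against 2300 ± 289 CPM before wounding (adjusted p = 0.0118). A broader family, taken by annotation as chlorophyll a/b-binding and photosystem proteins, had 15 of 59 tested genes lower and none higher. That share of lower genes was above the background, with a median log2 change of -0.25. This family was named after its values were seen and was not counted under the alternatives. Whether carbon fixation genes changed more than light reaction genes was not tested, since the lists were compared only by their counts and medians.

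Clock genes differed between the groups in the same libraries. CCA1, active at dawn, had 12, 15.7 and 9.79 CPM at 60 min, against 97.9, 84.2 and 79.7 CPM before wounding, and PRR5, active later in the day, had 14.2, 20.8 and 22.1 CPM at 60 min, against 3.77, 5.99 and 4.67 CPM before wounding. In all, 5 of 18 tested clock genes were higher and 6 were lower. The part of the hour of harvest in the photosynthesis and starch values was not tested.

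**Figure D3:**
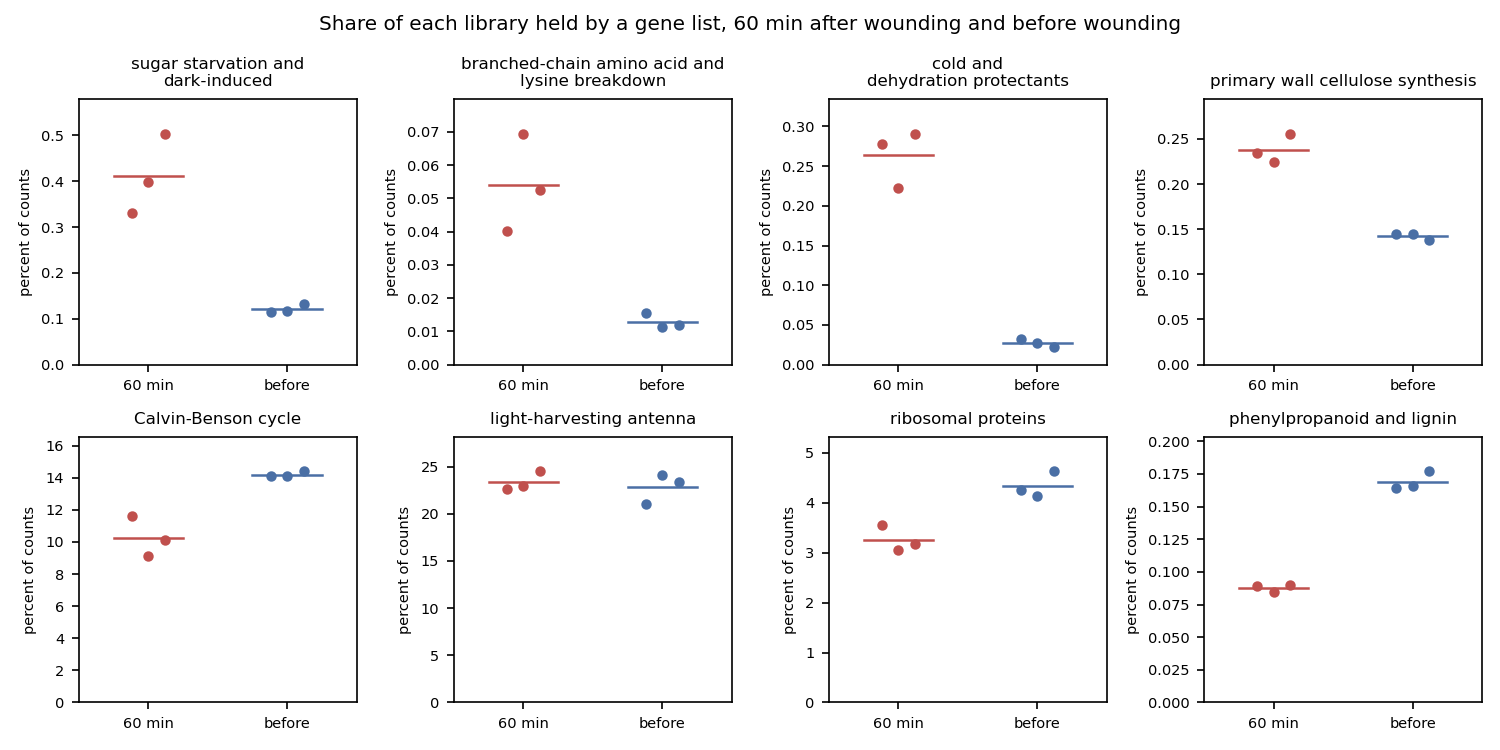
Share of the counts held by 8 gene groups in each library, in percent on axes that start at 0, for 60 min after wounding (red, left) and before wounding (blue, right), with group means as lines. The Calvin-Benson list held 9.13% to 11.6% at 60 min and 14.1% to 14.4% before wounding, while the antenna list overlapped between the groups.

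Most tested ribosomal protein genes fell. These proteins, with ribosomal RNA, build the ribosome, and a large gene family makes them in balanced amounts. The genes were taken by annotation text. They may therefore include proteins of plastid and mitochondrial ribosomes, and relatives such as L7Ae family members that are not ribosome subunits. Of 310 tested genes 182 were lower and 8 were higher, with a median log2 change of -0.57 and 53 genes lower by at least 2-fold. The family took 3.55%, 3.05% and 3.17% of the counts in the 60 min libraries, against 4.25%, 4.14% and 4.63% before wounding. The lower count was 114 without replicate 3 from before wounding, and the higher count 5 without 60 min replicate 1 or without replicate 2 or 3 from before wounding. Many of these genes have close copies, so the count was repeated over the 296 genes in which at least 90% of the stretches of 50 exon bases occur in no other gene, and 173 of them were lower and 6 higher. Ribosome assembly factors moved the same way, with 7 of 18 tested genes lower and none higher. FIB1, a fibrillarin that modifies ribosomal RNA, averaged 41.2 ± 11.4 CPM at 60 min and 94.4 ± 7.64 CPM before wounding. NAP57, of the pseudouridine-forming complex, averaged 9.89 ± 1.19 CPM at 60 min and 24.2 ± 1.13 CPM before wounding (log2 change -1.29, adjusted p = 0.000109), and the nucleolar protein NUC-L1 had a log2 change of -1.08.

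Plant ribosomal protein promoters are known for a pair of short elements, the site II element and the telo-box, and both were looked for in the 250 bases before the annotated start, on either strand. The site II letters TGGGCC were in 45.5% of the 310 promoters, in 53.3% of the 182 of genes that fell, and in 17.5% of the promoters of all tested genes. The telo-box letters AAACCCTA were in 14.2% of the 310 and in 3.56% of all. For the ribosome assembly list, 9 of 18 promoters held the site II letters. So did 11 of 23 proteasome promoters, 47.8%, in a list with a median log2 change of 0.00. Autophagy promoters held them in 6 of 20, 30.0%, with 8 genes higher and none lower. Among all genes called lower the share was 18.8%, and among those lower by at least 2-fold 12.4%. These are descriptions of sequence, and factor binding was not measured. The stretches below, from the TAIR10.1 assembly, show the match nearest to the start in 4 of the ribosomal protein genes with the smallest p among those that fell. These were picked among genes that held a match, and others of similarly small p held neither element. Matched letters are in capitals, and each stretch is written 5′ to 3′ on the strand of its gene.
AT2G32060 (chr2:13640432-13640482, minus strand, site II): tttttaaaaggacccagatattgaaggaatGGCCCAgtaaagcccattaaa
AT5G20160 (chr5:6805227-6805274, minus strand, site II): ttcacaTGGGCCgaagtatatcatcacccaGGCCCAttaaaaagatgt
RPL16B (chr4:10302103-10302162, plus strand, telo-box): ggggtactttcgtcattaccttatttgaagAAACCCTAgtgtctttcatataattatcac
AT3G07110 (chr3:2251901-2251945, plus strand, site II): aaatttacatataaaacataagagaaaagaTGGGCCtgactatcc
AT2G32060, annotated as a member of the L7Ae/L30e/S12e/Gadd45 ribosomal protein family, had 38.8, 27.4 and 32.9 CPM at 60 min, against 75.9, 77.6 and 91.2 CPM before wounding. RPL16B, ribosomal protein L16B, had 53.6, 40.7 and 49.4 CPM at 60 min, against 96.5, 110.1 and 125.8 CPM before wounding. The log2 changes of AT5G20160 and AT3G07110 were -1.5 and -1.42.

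**Figure D4:**
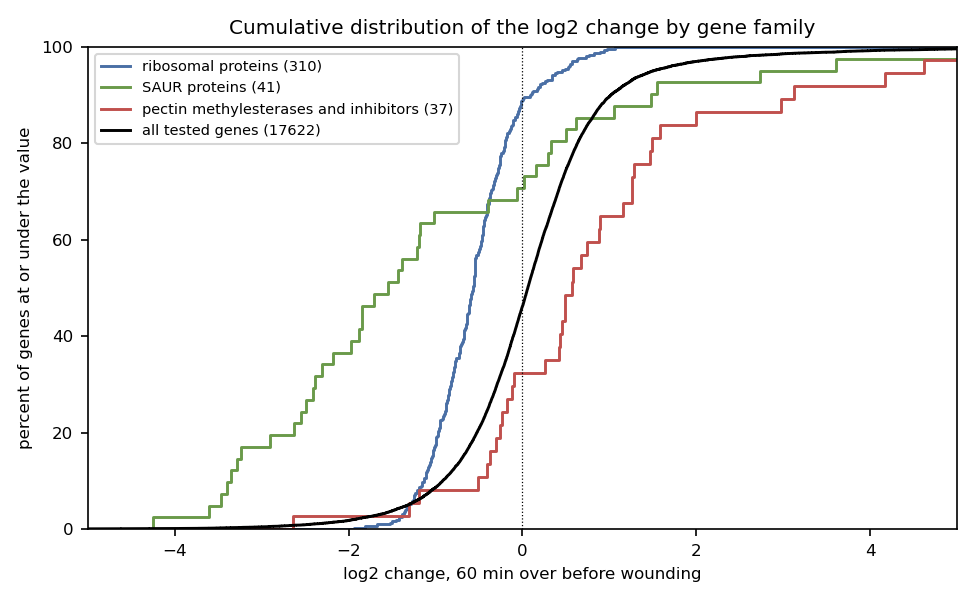
Cumulative percent of genes at or under each log2 change, 60 min over before wounding, for 310 ribosomal protein genes, 41 SAUR genes, 37 pectin methylesterase and inhibitor genes and all 17622 tested genes. The ribosomal curve crosses 50% at -0.57 and the SAUR curve at -1.55, to the left of the curve of all genes, and the pectin curve at 0.57, to the right.

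Sulfur assimilation fell at its reductive step. APR1 (AT4G04610), a reductase of activated sulfate, had 2.28, 3.14 and 2.61 CPM at 60 min, against 22.5, 33.8 and 20.5 CPM before wounding (log2 change -3.25 ± 0.24, adjusted p = 7.15e-07). Its relatives APR2 and APR3 had log2 changes of -2.01 and -2.93. Of 17 tested genes of sulfate assimilation 9 were lower and 2 were higher, with 1 higher without 60 min replicate 3 or without replicate 1 from before wounding. GSH2, glutathione synthetase, averaged 84.5 ± 22.8 CPM at 60 min and 43.2 ± 6.29 CPM before wounding. Of 4 tested markers of sulfur limitation, AT1G04770 and LSU2 fell and the other two were not called, and AT1G04770, annotated as a tetratricopeptide repeat protein, averaged 1.2 ± 0.26 CPM at 60 min and 13.8 ± 5.39 CPM before wounding.

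Glucosinolates, the sulfur-rich defence compounds of the cabbage family, come from methionine in the aliphatic branch and from tryptophan in the indole branch. In the aliphatic branch 13 of 17 tested genes were lower, 12 of them by at least 2-fold, none was higher, and the median log2 change was -1.53. CYP79F1, which makes the aldoxime, had 3.27, 1.63 and 2.08 CPM at 60 min, against 18.1, 22.8 and 18.2 CPM before wounding. CYP83A1 (AT4G13770), which acts on the aldoxime, had 11, 12 and 10.1 CPM at 60 min, against 47.1, 70.8 and 57.0 CPM before wounding (log2 change -2.39 ± 0.22, adjusted p = 3.38e-06). MAM1, which lengthens the methionine side chain, and MYB28, a regulator of the branch, had log2 changes of -1.90 and -1.02. The indole branch was mixed, with 4 of 15 tested genes higher and 3 lower. GSTF10, a glutathione transferase assigned to that branch, averaged 181 ± 18.8 CPM at 60 min and 55.3 ± 2.72 CPM before wounding, while MYB51, a regulator of the branch, averaged 1.98 ± 0.25 CPM at 60 min and 6.11 ± 1.77 CPM before wounding. The higher count was 2 without replicate 3 from before wounding and the lower count 1 without replicate 2. In tryptophan synthesis 2 of 10 tested genes were higher and none lower, and ASA1, the committed enzyme, averaged 31.1 ± 4.2 CPM at 60 min and 13.5 ± 1.97 CPM before wounding.

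Phenylpropanoid and lignin genes, which turn phenylalanine into wall polymers and phenolics, fell at most steps. Of 18 tested genes 13 were lower and 1 was higher, with a median log2 change of -1.10, and the list took 0.0879 ± 0.0031% of the counts at 60 min and 0.169 ± 0.0072% before wounding. PAL1, phenylalanine ammonia-lyase at the entry, had 61.8, 47.6 and 62.5 CPM at 60 min, against 170, 192 and 230 CPM before wounding. Both cinnamyl alcohol dehydrogenases of lignin, at the last step, went opposite ways. CAD4 (AT3G19450) had 52.3, 43.4 and 60.9 CPM at 60 min, against 222, 241 and 266 CPM before wounding (log2 change -2.22 ± 0.18, adjusted p = 1.17e-06), and CAD5 (AT4G34230) had 20.8, 20.4 and 24.0 CPM at 60 min, against 5.39, 5.27 and 5.97 CPM before wounding (log2 change 1.97 ± 0.17, adjusted p = 2.51e-06). In the flavonoid and anthocyanin list 8 of 12 tested genes were lower and none was higher. TT4 (AT5G13930), chalcone synthase, had 39.0, 37.4 and 37.3 CPM at 60 min, against 260, 369 and 342 CPM before wounding (log2 change -3.09 ± 0.19, adjusted p = 1.26e-07). Upstream, in the shikimate pathway, 2 of 12 tested genes were higher and 5 lower, the lower count being 3 without replicate 2 from before wounding and the higher count 1 without replicate 2 or 3 from before wounding, where DHS1, of the entry step, lost its call. CM3 and CM1, both chorismate mutases, had log2 changes of 1.47 and -1.48.

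Genes of wall loosening were split by family. Expansins let wall polymers slip during growth, and 9 of 16 tested genes were lower and 2 higher, with a median log2 change of -1.05. EXPB1 (AT2G20750) had 0.776, 0.834 and 1.2 CPM at 60 min, against 26.1, 34.3 and 28.9 CPM before wounding (log2 change -4.99 ± 0.28, adjusted p = 8.38e-08). EXPA8 had 6.25, 5.19 and 2.79 CPM at 60 min, against 72.6, 93.2 and 98.1 CPM before wounding. In the other direction EXPA16 averaged 8.38 ± 1.65 CPM at 60 min and 0.429 ± 0.0757 CPM before wounding, and EXLA2 averaged 84.9 ± 39.4 CPM at 60 min and 13.5 ± 1.54 CPM before wounding.

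Xyloglucan endotransglucosylases, which cut and rejoin xyloglucan chains, had 9 of 21 tested genes higher and 5 lower. XTH15 (AT4G14130) had 16.5, 14.7 and 29.0 CPM at 60 min, against 1.27, 1.21 and 0.903 CPM before wounding (log2 change 4.14 ± 0.42, adjusted p = 9.01e-06). XTH24 averaged 119 ± 60 CPM at 60 min and 19.8 ± 7.27 CPM before wounding, and the largest fall in the family was that of XTH31, at 0.56, 1.25 and 0.974 CPM at 60 min, against 44.2, 40.6 and 45.9 CPM before wounding (log2 change -5.53 ± 0.32, adjusted p = 1.04e-07). XTH32 averaged 12.8 ± 0.62 CPM at 60 min and 39.3 ± 5.33 CPM before wounding. The higher count was 5 without 60 min replicate 3 or without replicate 3 from before wounding, and the lower count 3 without replicate 1 or replicate 2 from before wounding. Among pectin methylesterases and their inhibitors, which set how firmly pectin gels, 16 of 37 tested genes were higher and 3 lower. PME3 averaged 197.1 ± 7.47 CPM at 60 min and 49.5 ± 10.9 CPM before wounding, and AT5G62360, of the inhibitor superfamily, 76.9 ± 21.7 CPM at 60 min and 1.00 ± 0.232 CPM before wounding.

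Most tested genes of cellulose synthesis in the primary wall rose, by less than 2-fold. CESA1 (AT4G32410), a catalytic subunit of the synthase, had 328, 286 and 355 CPM at 60 min, against 172, 190 and 167 CPM before wounding (log2 change 0.87 ± 0.13, adjusted p = 0.000269). Of 9 tested genes 6 were higher, none by 2-fold, and 1 was lower, and the list took 0.238 ± 0.0159% of the counts at 60 min and 0.143 ± 0.00407% before wounding. COB, needed for oriented cellulose deposition, had 427, 332 and 457 CPM at 60 min, against 221, 220 and 237 CPM before wounding. CESA3, KOR1 and CSI1 had log2 changes of 0.69, 0.67 and 0.69. CESA6 had a log2 change of 0.56 and lost its call without replicate 3 from before wounding (adjusted p = 0.0507). The lower member, CESA5, with a log2 change of -0.38, lost its call without any single one of the 6 libraries (adjusted p up to 0.188).

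**Figure D5:**
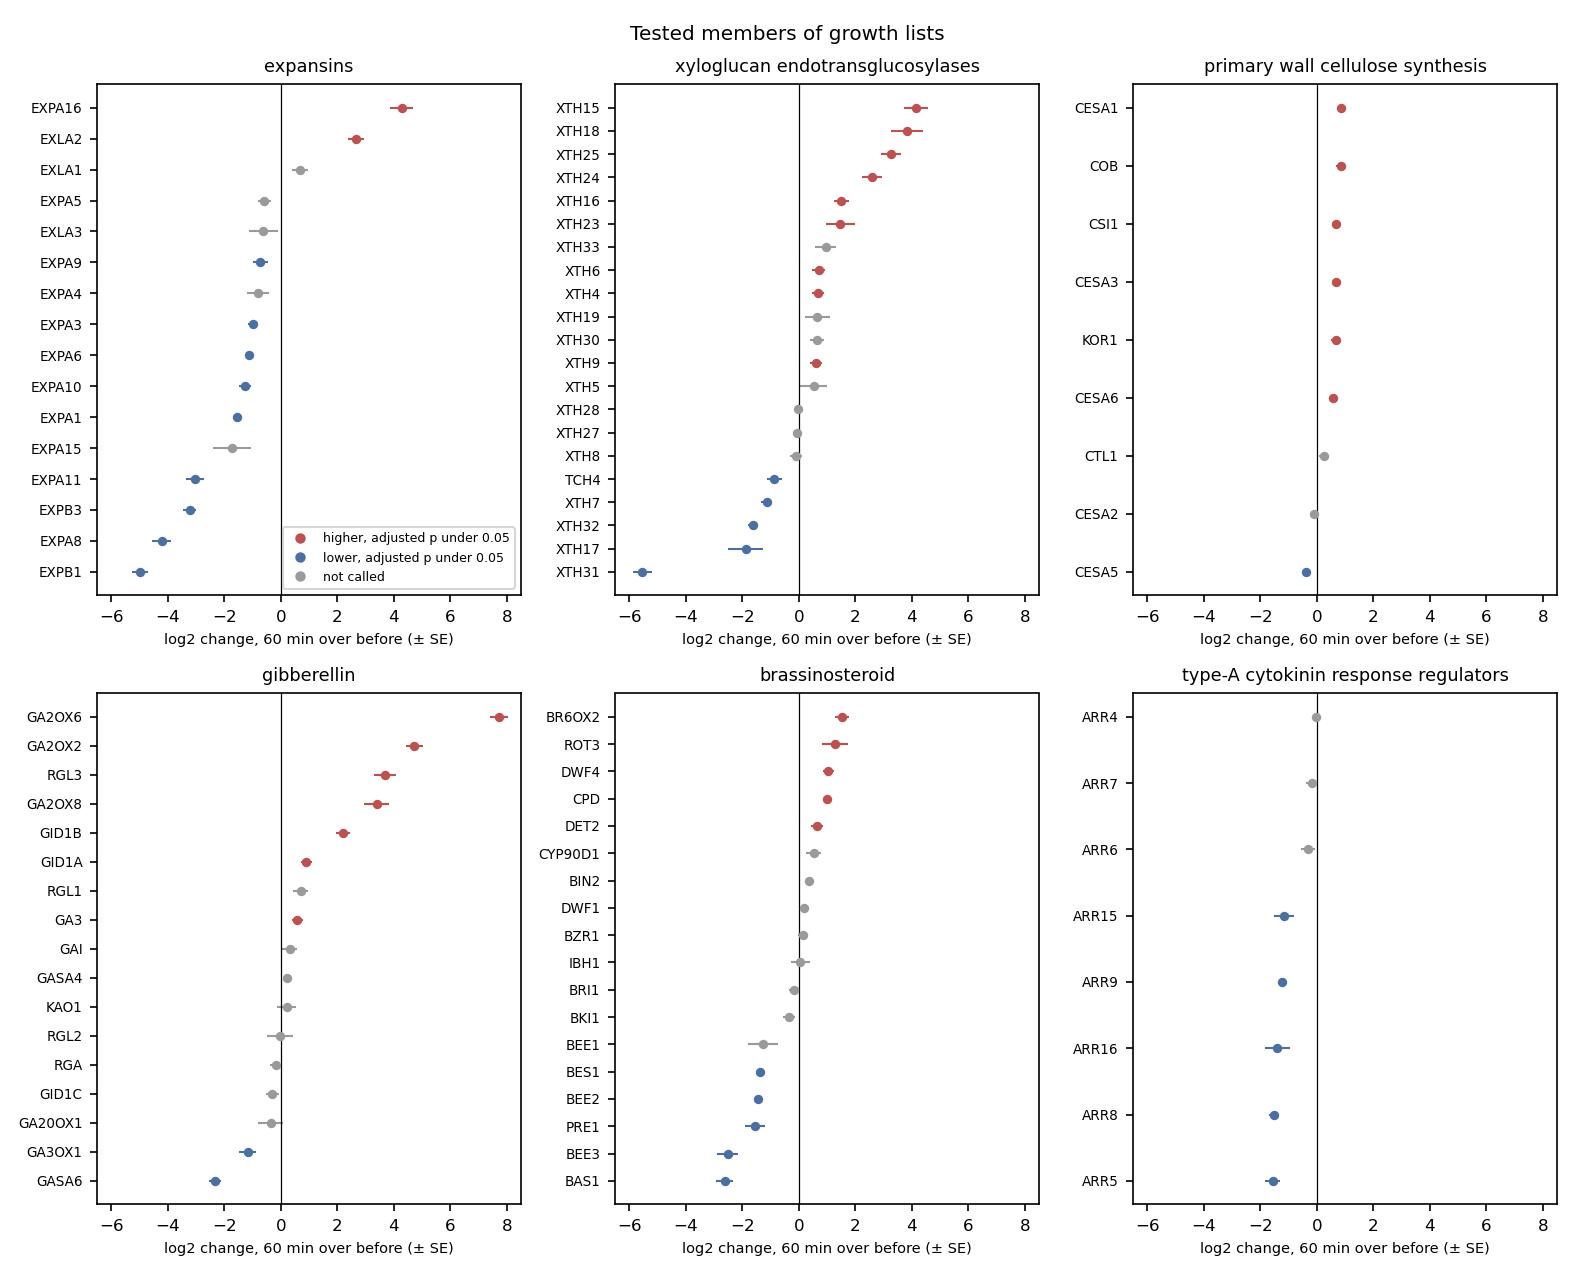
Log2 change, 60 min over before wounding, with its SE, for every tested member of 6 growth lists, ordered by value, with called genes in red (higher) or blue (lower) and the rest in grey. Expansins lie mostly left of 0 down to -4.99, cellulose synthesis genes mostly right of 0 up to 0.87, and GA2OX6 stands at 7.72.

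Auxin-responsive growth genes were mostly lower. SAUR genes, small auxin-induced messages tied to cell expansion, had 24 of 41 tested members lower, each by at least 2-fold, and 4 higher, with a median log2 change of -1.55. Over the 37 with at least 90% unique stretches, 21 were lower and 4 higher. The higher count was 2 without replicate 2 from before wounding. AT2G21210, a SAUR-like gene, averaged 17.3 ± 2.66 CPM at 60 min and 62.3 ± 5.66 CPM before wounding, and SAUR36 went the other way at 4.51 ± 1.12 CPM against 0.366 ± 0.229 CPM. In the auxin response and synthesis list 8 of 22 tested genes were lower and 2 higher, with 1 higher without 60 min replicate 3 or without any single library from before wounding, and 1 under RLE scaling. IAA14, a repressor induced by auxin, had 0.991, 1.63 and 1.82 CPM at 60 min, against 9.69, 11 and 8.33 CPM before wounding (log2 change -2.70 ± 0.27, adjusted p = 8.32e-06). GH3.3, which conjugates auxin to amino acids, had 9.95, 1.78 and 11.3 CPM at 60 min, against 0.877, 1.21 and 0.502 CPM before wounding, so 60 min replicate 2 lay close to the lower group.

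Genes that inactivate gibberellin were among the largest changes in the growth lists. GA2OX6 (AT1G02400), which inactivates gibberellin, had 25.9, 28.8 and 38.8 CPM at 60 min, against 0.0877, 0.145 and 0.201 CPM before wounding, the last being 2, 3 and 4 counts. Its log2 change of 7.72 ± 0.32 (adjusted p = 5.5e-09) rests on those few counts. GA2OX2 and GA2OX8, of the same kind, had log2 changes of 4.73 and 3.39. RGL3, a DELLA repressor of gibberellin responses, had 21.2, 23.2 and 31.8 CPM at 60 min, against 0.57, 2.56 and 2.86 CPM before wounding. GID1B, a gibberellin receptor, averaged 6.77 ± 0.81 CPM at 60 min and 1.47 ± 0.241 CPM before wounding. GASA6, a gibberellin-regulated gene, averaged 84.7 ± 7.19 CPM at 60 min and 426 ± 121 CPM before wounding, and GA3OX1, which makes active gibberellin, had a log2 change of -1.17. In all, 7 of 17 tested genes were higher and 2 lower.

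Brassinosteroid genes had 5 of 18 tested members higher, 5 lower and 8 not called. The 5 higher were enzymes of synthesis. CPD had 148, 167 and 135 CPM at 60 min, against 73.5, 72.6 and 77.1 CPM before wounding (log2 change 1.01 ± 0.13, adjusted p = 6.38e-05), and DWF4 and BR6OX2 had log2 changes of 1.05 and 1.53. ROT3 and DET2, at 1.29 and 0.64, each lost the call without any of several single libraries (adjusted p up to 0.159 and 0.178), and the higher count was 3 without 60 min replicate 1 or 2 or without replicate 1 or 2 from before wounding. The synthesis enzymes DWF1 and CYP90D1 were not called, at 0.19 and 0.53. Among the lower genes, BES1, a transcription factor of the pathway, averaged 52.9 ± 6.32 CPM at 60 min and 137 ± 3.21 CPM before wounding, and BEE2, a growth regulator named for its induction by the hormone, averaged 39.6 ± 0.492 CPM at 60 min and 108 ± 11.5 CPM before wounding. BEE3 and PRE1, also growth regulators, and BAS1, an enzyme that inactivates the hormone, had log2 changes of -2.52, -1.55 and -2.62. The response genes BZR1, BEE1 and IBH1 were not called, at 0.16, -1.26 and 0.05.

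Most tested type-A regulators of the cytokinin response were lower, while cell cycle genes were called lower near the background share. Type-A response regulators, rapid reporters of cytokinin, had 5 of 8 tested genes lower and none higher, with 3 lower without 60 min replicate 3 or without replicate 2 or 3 from before wounding. ARR9 had 26.1, 35.1 and 25.9 CPM at 60 min, against 68.5, 66.4 and 67.6 CPM before wounding (log2 change -1.22 ± 0.14, adjusted p = 3.5e-05). Among 27 tested cell cycle genes 5 were lower and none was higher, 18.5% against the background of 15.3%. The median log2 change of this list was -0.4, and DESeq2 called 8 lower. TSO2, a ribonucleotide reductase subunit that feeds DNA synthesis, averaged 10.1 ± 1.53 CPM at 60 min and 22.1 ± 3.65 CPM before wounding. The D-type cyclins CYCD3;2 and CYCD3;3, which start the cycle, had log2 changes of -0.79 and -1.04. CYCD3;1 had a log2 change of -0.82 and lost its call without any of 4 single libraries (adjusted p up to 0.16). The cyclin and kinase genes of mitosis, such as CYCB1;1 and CDKB1;1 at 0.75 and 0.72, were not called. Of 12 tested leaf growth regulators 1 was higher and 2 lower. The higher one, AN3, a coactivator of leaf cell division, had a log2 change of 1.25 (adjusted p = 0.0435) and lost its call without any single one of the 6 libraries (adjusted p 0.0522 to 0.128). ANT, which prolongs leaf growth, averaged 1.24 ± 0.141 CPM at 60 min and 3.89 ± 0.641 CPM before wounding. In light signalling 5 of 14 tested genes were lower and 1 higher, the higher one, FHL, being lost without any single library except replicate 3 from before wounding, and HYH, a light-promoted transcription factor, averaged 2.80 ± 0.377 CPM at 60 min and 15.9 ± 1.39 CPM before wounding.

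Jasmonate genes were higher at making, removing and restraining the hormone. Of 17 tested synthesis genes 15 were higher, of 10 catabolism genes 9, and of 12 JAZ genes 10, and none of these was lower. LOX3, a lipoxygenase of the first step, averaged 82.8 ± 7.16 CPM at 60 min and 11 ± 1.21 CPM before wounding, and OPCL1, of the later peroxisomal steps, 46.1 ± 2.3 CPM at 60 min and 7.05 ± 1.79 CPM before wounding. IAR3, an amidohydrolase that splits jasmonoyl-isoleucine, had 77.2, 84.3 and 93.1 CPM at 60 min, against 9.43, 8.89 and 9.99 CPM before wounding (log2 change 3.17 ± 0.15, adjusted p = 2.05e-08). AT5G05600 (log2 change 7.50 ± 0.23, adjusted p = 5.5e-10), annotated as an oxoglutarate-dependent oxygenase, averaged 206 ± 35.5 CPM at 60 min and 1.13 ± 0.267 CPM before wounding. Among 10 tested genes of jasmonate defence output 7 were higher, and 4 in a fit to the 6 libraries alone. VSP2 and PDF1.2, standard late markers of the pathway, were not called, with log2 changes of -0.51 and -1.37.

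Receptors of danger and microbial signals rose in part. Of 19 tested genes of pattern and wound perception 8 were higher and 1 lower. FLS2 (AT5G46330), the receptor of bacterial flagellin, had 43.6, 44.4 and 51.2 CPM at 60 min, against 11.3, 12.1 and 15.5 CPM before wounding (log2 change 1.84 ± 0.18, adjusted p = 7.86e-06). EFR, the receptor of bacterial elongation factor, had a log2 change of 2.01, the kinase BIK1 1.21, and PEPR1, the receptor of plant elicitor peptides, 1.1. RBOHD, the oxidase that produces extracellular superoxide, averaged 8.78 ± 1.28 CPM at 60 min and 17.8 ± 1.92 CPM before wounding. WRKY transcription factors had 15 of 39 tested genes higher and 4 lower, with WRKY18 at 77.9 ± 7.40 CPM at 60 min against 6.23 ± 1.67 CPM before wounding. Their lower count was 2 without 60 min replicate 1. Calmodulin and calmodulin-like genes had 20 of 45 tested genes higher and 3 lower, with 11 higher without replicate 2 and 13 without replicate 3 from before wounding. Salicylic acid and camalexin genes went both ways, with 5 of 13 tested genes lower and 3 higher, and 3 lower without 60 min replicate 1. PR5, a salicylic acid marker, averaged 0.941 ± 0.224 CPM at 60 min and 6.68 ± 1.17 CPM before wounding. In ethylene synthesis and response 7 of 19 tested genes were higher and 1 lower, and 4 were higher without 60 min replicate 3. The kinase CTR1, a brake on ethylene signalling, averaged 39.3 ± 5.3 CPM at 60 min and 17.8 ± 3.78 CPM before wounding. The lower member was ACS6, a stress-induced enzyme of ethylene synthesis, at 6.71 ± 2.44 CPM against 26.5 ± 7.83 CPM before wounding. ACS8, another enzyme of synthesis, was among the higher members and kept its call without each single library (adjusted p up to 0.00199).

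Abscisic acid genes changed in both directions. BGLU18 (AT1G52400), a glucosidase that frees abscisic acid from its glucose ester, had 65.2, 69.6 and 49.2 CPM at 60 min, against 3.51, 5.61 and 4.87 CPM before wounding (log2 change 3.72 ± 0.22, adjusted p = 1.04e-07). CYP707A2, which hydroxylates abscisic acid, had 0.948, 2.31 and 1.46 CPM at 60 min, against 13.3, 11.8 and 14.6 CPM before wounding (log2 change -3.06 ± 0.31). NCED3, the stress-induced enzyme of synthesis, was not called (log2 change 0.65, adjusted p = 0.241). The receptors PYL5 and PYL6 had log2 changes of 1.04 and 1.5, and PP2CA, a phosphatase that blocks the pathway, -1.16. Of 25 tested genes 8 were higher and 4 lower, and the higher count was 4 without replicate 2 and 5 without replicate 3 from before wounding. Guard cell markers moved in the same libraries, with HT1 at 9.09, 7.69 and 12.4 CPM at 60 min against 1.93, 2.95 and 3.06 CPM before wounding, and their part in the abscisic acid values was not tested.

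Antioxidant genes went both ways, with 3 of 15 tested genes higher and 6 lower. VTC2 (AT4G26850), the controlling enzyme of ascorbate synthesis, had 65.6, 64.5 and 53.1 CPM at 60 min, against 281, 290 and 290 CPM before wounding (log2 change -2.23 ± 0.15, adjusted p = 4.15e-07). VTC4, a later enzyme of that pathway, had a log2 change of -1.5. DHAR1, which recycles oxidised ascorbate, averaged 195 ± 8.17 CPM at 60 min and 36.8 ± 6.49 CPM before wounding, and CAT1, a catalase, had a log2 change of 1.23. Few lipid genes were called: 4 of 17 tested genes of plastid fatty acid synthesis and desaturation were lower and none higher (median -0.22, and 0.00 under scaling by library size alone), with FAD8, a desaturase, at a log2 change of -1.06. In cuticular wax synthesis 2 of 14 were higher and 1 lower, with CUT1, an elongase of wax precursors, at 260 ± 33.8 CPM at 60 min and 108 ± 9.84 CPM before wounding. Of 17 tested aquaporins 1 was higher and 4 were lower (median -0.18, and 0.02 under scaling by library size alone), the lower count being 2 without 60 min replicate 1 or 2 or without replicate 1 or 2 from before wounding. Endoplasmic reticulum folding genes had 3 of 14 higher and 3 lower, with none lower under scaling by library size alone, and the calreticulins CRT1a and CRT1b had log2 changes of 0.81 and -0.53.

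The list of cold and dehydration protectants was higher in 15 of 18 tested genes and lower in none, with a median log2 change of 3.22. Many of its genes serve hydrophilic proteins or sugars that stabilise membranes. It also holds other cold-responsive genes, such as COR27 and COR413-PM1. The list took 0.278%, 0.223% and 0.291% of the counts at 60 min, against 0.0322%, 0.0276% and 0.0216% before wounding. ERD10, a dehydrin, had 632, 436 and 622 CPM at 60 min, against 54.7, 31.3 and 23.9 CPM before wounding. LTI30, another dehydrin, had 43.5, 28.2 and 69.4 CPM at 60 min, against 0.746, 0.29 and 0.251 CPM before wounding. GOLS3, a galactinol synthase that feeds raffinose synthesis, had 13.8, 11.5 and 11.1 CPM at 60 min, against 1.18, 0.483 and 0.402 CPM before wounding. No values overlapped between the groups for these genes, and their log2 changes were 3.94 ± 0.29, 6.73 ± 0.43 and 4.11 ± 0.45 (adjusted p = 7.07e-07, 2.15e-07 and 1.69e-05). ERD15 and ERD4, early dehydration genes outside this list, were among the 8 largest gains in CPM, at 1230 ± 264 CPM against 439 ± 50.3 CPM and at 803 ± 197 CPM against 254 ± 22.4 CPM. LTI65, RAB18 and GOLS1 were not called (log2 changes 0.49 to 0.70).

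The DRE core, CCGAC, is the binding element of the CBF class of cold-response factors. It was in 7 of the 18 promoters of the list, 38.9%, and in 13.2% of the promoters of all tested genes, on either strand within 250 bases before the start. Other lists held it too, as in 5 of 9 cellulose synthesis promoters, 55.6%, with 6 genes higher and 1 lower. The auxin response and synthesis list had it in 8 of 22, 36.4%, with 2 genes higher and 8 lower. In plastid fatty acid synthesis and desaturation it was in 6 of 17, 35.3%, with none higher and 4 lower. The match nearest to the start is shown for 4 of the genes that rose and held the letters, written 5′ to 3′ on the strand of each gene in TAIR10.1 with the letters, or their reverse complement, in capitals.
COR15A (chr2:17712375-17712439, minus strand): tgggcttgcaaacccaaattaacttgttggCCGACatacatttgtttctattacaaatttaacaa
LTI78 (chr5:21240654-21240716, plus strand): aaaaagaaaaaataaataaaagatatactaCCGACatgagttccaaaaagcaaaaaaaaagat
LTI30 (chr3:18940604-18940642, plus strand): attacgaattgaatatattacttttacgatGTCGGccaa
GOLS3 (chr1:3019404-3019468, plus strand): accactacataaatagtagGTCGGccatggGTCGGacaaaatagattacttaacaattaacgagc
The match began 79, 33, 9 and 205 bases before the start in COR15A, LTI78, LTI30 and GOLS3, and COR15A, a stromal protectant, had 83.3, 65.6 and 78.0 CPM at 60 min, against 12.5, 16.2 and 6.42 CPM before wounding. Over broader sets, the G-box CACGTG was in 10.3% of the promoters of genes higher by at least 2-fold and in 7.48% of all, and the rapid stress response element CGCGTT in 5.17% and 2.84%.

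Few genes were called between 30 and 60 min after wounding. The direct comparison of both times called 356 genes, 2.02% of those tested, with 127 (0.721%) higher and 229 (1.3%) lower at 60 min. It shares the 60 min libraries with the comparison above, so the values are given side by side only. Of the 18 tested genes of the protectant list 6 were higher at 60 min than at 30 min, GOLS3 with a log2 change of 2.48 and LTI30 with 1.82. Of the 12 JAZ genes 9 were lower at 60 min than at 30 min. Single genes called higher at 60 min than at 30 min were BGLU18 (2.67, adjusted p = 2.22e-05) and CAD5 (1.8, adjusted p = 0.000178). Called lower were RBOHD (-1.5, adjusted p = 0.000559), LOX3 (-1.17, adjusted p = 0.00144), IAA14 (-1.34, adjusted p = 0.0199), GASA6 (-1.07, adjusted p = 0.0194) and SPS4F (-0.67, adjusted p = 0.0199). For the lists of sugar starvation, branched-chain breakdown, Calvin-Benson cycle, photorespiration, expansins and ribosome assembly, and for the ribosomal protein family, no member was called between the times. The lack of a call does not show that a gene stayed the same.

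The counting is not stated to use strand, so reads of a gene and of an overlapping gene on the opposite strand cannot be told apart. Such an overlap is annotated for DIN10, ASN1, BCAT-2, BCE2, DIN4, ETFQO, MCCA, P5CDH, P5CS1, TPS5, STP1, SPS4F, GLU1, RCA, CRD1, CAO, GLDP1, CAT2, RPL16B, NUC-L1, APR1, APR2, APR3, AT1G04770, GSTF10, ASA1, CM3, TT4, FAD8, XTH15, CESA1, CESA3, KOR1, CSI1, GASA6, CPD, ROT3, DET2, BES1, BZR1, ARR9, CYCD3;2, CDKB1;1, PBD1, FLS2, EFR, RAB18, GOLS1 and EXPA7. RBCS1B, RBCS2B, DHAR1 and FAD8 share exon stretches with near-identical genes, with 88.0%, 83.1%, 84.6% and 85.5% of their stretches unique, so reads could be split with their copies. The same holds for list members not named above. Among them are the antenna genes CAB1, CAB2, CAB3, LHCB2.1 and LHCB2.2, with 70.5% to 89.4% unique. In the tryptophan and indole glucosinolate lists, PAI1, ASB1, IGMT1 and IGMT2 had 46.5% to 89.6% unique.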

How the data were processed

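Polyadenylated RNA of leaves was sequenced from TruSeq libraries, and the deposited table holds whole-number counts of reads per gene made by the authors, not normalized. Per the submitters' processing notes, the tools named were FastQC 0.11.8, Trimmomatic 0.36, HISAT2 2.2.0 and featureCounts with the TAIR10 build; the annotation release and strand setting were not given in the sources used here, so multi-mapped and antisense reads may affect the counts of gene families and overlapping genes. From the deposited counts, edgeR 4.0.16 (R 4.3.3) computed TMM scaling factors, the low-count filter and quasi-likelihood tests with group as the only term in all 9 libraries, with Benjamini-Hochberg adjustment over 17622 genes and a threshold of 0.05. Each SE was taken as the absolute log2 change over the root of its F statistic. The tested genes held 99.96% of the counts, and the biological coefficient of variation was 0.217. The procedure was tested on simulated data. Gene lists were compared by counts and medians only, and shares of counts by exact permutation tests. DESeq2 1.42.0, other scalings, no filter, the 6 libraries alone, replicate number as a term, a threshold of 0.01 and leaving out each library were tried as alternatives.

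Named genes were the 8 that gained and the 8 that lost most CPM among called genes without overlap of the groups, and, for each list and direction, the called member of smallest p, provided that no library of its higher group had under 20 counts. The members and lists were chosen with earlier results of these data known. Promoter stretches and exon stretches of 50 bases were read from the RefSeq TAIR10.1 genome and annotation with Python 3.11.15, and figures were drawn with matplotlib 3.10.9. Replicates were compared before averaging, and no pair in a group differed by as little as sampling noise. P-values of the fit set each difference between groups against the spread between these libraries.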

Additional observations from a re-analysis of the deposited data

How the results depend on the processing

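The number of genes called at 60 min against before wounding was 5647 with RLE scaling, 5931 with library size alone, 5674 with no low-count filter, 5828 with the 6 libraries alone and 6026 with DESeq2, against 5704. Scaling by library size alone lowered the count of lower genes to 1723. A threshold of 0.01 left 3494 genes, 1819 higher and 1675 lower, by construction. Leaving out single libraries gave 4063 to 5081 genes, 2067 to 2663 of them higher and 1996 to 2435 lower. With replicate number as a block 4728 genes were called. Deviations of same-numbered libraries correlated at -0.138, -0.03 and 0.156, and 1 of 3 correlated best with its own number, so the numbers were not taken to pair the libraries. Of 1157 values of the 89 named genes under the alternatives, 1097 kept direction and side of the threshold, 60 no longer passed it and 0 reversed. Of 384 called list members and named genes, 285 kept the call without each library and 99 lost it without at least 1. The cause of these losses was not tested. Genes near the floor of 3 counts, such as GA2OX6 before wounding, have fold changes limited by depth, and time of day and wounding cannot be told apart.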

Other observations

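Further gene families, named after their values were seen, were counted in the same fit. Of 117 tested cytochrome P450 genes 15 were higher and 38 lower at 60 min, with a median log2 change of -0.25. Of 27 tested subtilases and other serine proteases 10 were lower and none was higher. Of 45 tested ABC transporter genes 11 were higher and 3 lower, and of 38 calcium-dependent and CBL-interacting kinases 12 were higher and 3 lower. Sugar transporter genes, as annotated, had 34 of 142 higher and 16 lower, and took 0.338 ± 0.026% of the counts at 60 min and 0.208 ± 0.0169% before wounding (SD, n = 3 each). B-box zinc finger genes, which act in light and clock responses, had 4 of 19 higher and 9 lower.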
